A study of Homo sapiens with 8 samples.

Results

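The circadian clock of human cells was examined through 10 genes in spheroids of 2 pancreatic cancer cell lines: the cryptochromes CRY1 and CRY2, the period genes PER1, PER2 and PER3, the activator CLOCK, the nuclear receptors NR1D1 and NR1D2, and the output factors DBP and BHLHE40. They were picked by symbol from the 62649 genes of the expression table, and all 10 were found and passed the filter on low values along with 19122 genes in all. AsPC-1 and PANC-1 are established lines of human pancreatic ductal adenocarcinoma, both labelled WT. The cells grew for 3 days in medium with methylcellulose, where they form spheroids, and were then treated for 24 h. Each line gave 1 library with vehicle, 1 with 10 µM roseoflavin, 1 with 1 nM trametinib and 1 with both compounds, so there were 8 libraries and no replicates of any condition. Roseoflavin is an antibiotic analogue of riboflavin, the vitamin from which FMN and FAD are made. Trametinib inhibits the MEK kinases of the MAPK pathway. Levels are in TPM, a unit that corrects for gene length and library size and sums to 1000000 in each library. It does not carry the number of reads, and the sequencing depth is therefore unknown.

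The clock is a transcriptional loop. CLOCK pairs with BMAL1 on E-box sequences and drives the period and cryptochrome genes, whose proteins return to the nucleus and block that pair. A second loop runs through NR1D1 and NR1D2 (REV-ERB alpha and beta), receptors that repress the BMAL1 gene, and DBP and BHLHE40 carry the rhythm to other genes. Cryptochromes descend from the photolyases and can bind FAD. All libraries were taken at a single time after treatment, so phase and rhythm were not measured, and in bulk RNA fewer cells with a transcript and less of it per cell cannot be told apart.

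Promoter sequences of CRY1, CRY2, PER2, NR1D2 and BHLHE40 are given here, because the clock acts on short motifs in promoters. Those printed are windows that held a motif. The windows are the 250 bases before a transcription start in RefSeq (GRCh38.p14), 5′ to 3′ on the strand of the gene, and all 10 genes matched the table. The E-box searched was CACGTG, the related E′-box CACGTT, and the D-box, the site of DBP, TTATGTAA or TTACGTAA, each on both strands. Capitals mark these motifs, and in BHLHE40 also ACGTG, the core of the site bound by the hypoxia-inducible factors, which lies inside the E-box on both strands and inside the E′-box on 1 strand. CRY1 at chr12:107093550-107093799 (minus strand) and CRY2 at chr11:45847225-45847474 (plus strand) each held an E′-box on the reverse strand. The PER2 window, chr2:238288611-238288860 (minus strand), held an E′-box. The window of NR1D2, chr3:23945871-23946120 (plus strand), held a pair of E-boxes and a D-box, and that of BHLHE40, chr3:4979187-4979436 (plus strand), held an E-box and other ACGTG cores.
CRY1: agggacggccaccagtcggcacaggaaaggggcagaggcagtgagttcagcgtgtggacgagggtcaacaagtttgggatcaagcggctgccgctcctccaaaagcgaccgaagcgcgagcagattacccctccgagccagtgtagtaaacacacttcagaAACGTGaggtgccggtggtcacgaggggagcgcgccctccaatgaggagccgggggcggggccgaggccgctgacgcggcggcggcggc
CRY2: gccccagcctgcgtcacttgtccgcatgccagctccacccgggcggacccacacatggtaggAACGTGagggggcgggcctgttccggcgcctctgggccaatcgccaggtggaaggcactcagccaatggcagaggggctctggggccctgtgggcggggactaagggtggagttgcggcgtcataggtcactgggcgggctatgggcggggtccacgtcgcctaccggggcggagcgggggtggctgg
PER2: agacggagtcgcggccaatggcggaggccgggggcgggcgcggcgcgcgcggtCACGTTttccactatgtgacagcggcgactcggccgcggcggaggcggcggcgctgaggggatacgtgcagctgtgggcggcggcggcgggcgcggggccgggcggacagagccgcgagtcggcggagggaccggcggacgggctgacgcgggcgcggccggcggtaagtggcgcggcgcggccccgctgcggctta
NR1D2: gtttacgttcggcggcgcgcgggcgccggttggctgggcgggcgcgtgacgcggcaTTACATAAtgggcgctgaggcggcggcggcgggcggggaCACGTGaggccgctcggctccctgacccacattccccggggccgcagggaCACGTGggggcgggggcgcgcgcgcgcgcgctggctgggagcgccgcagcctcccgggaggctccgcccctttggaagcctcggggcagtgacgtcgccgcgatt
BHLHE40: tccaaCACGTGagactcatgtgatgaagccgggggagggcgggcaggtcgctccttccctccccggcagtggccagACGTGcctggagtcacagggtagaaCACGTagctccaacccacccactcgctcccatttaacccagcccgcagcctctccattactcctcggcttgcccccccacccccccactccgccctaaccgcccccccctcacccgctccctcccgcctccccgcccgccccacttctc

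Over the 14 windows of the 10 genes, the E-box was found in 3 genes (PER1, NR1D2 and BHLHE40), the E′-box in 5 (CRY1, CRY2, PER2, CLOCK and NR1D1) and the D-box in 2 (PER3 and NR1D2). Counted by window, these were 3, 5 and 2 of the 14. Of all 35116 windows of this length, 6.34% held the E-box, 4.55% the E′-box and 0.94% the D-box. CRY2 and NR1D2 each had a further window, not printed here, that held none of these motifs. The window of DBP, also not printed, held none of them. The core ACGTG lies inside both boxes, so the 8 of 10 genes that held it are those with an E-box or an E′-box and are no further result; 18.5% of all windows held it. A match is a description of the letters and not evidence of binding.

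The libraries held transcripts of epithelial and mesenchymal genes. EPCAM, KRT8, KRT18, KRT19 and CDH1 were all above 1 TPM in both lines and summed to between 7392 and 8509 TPM in AsPC-1 and between 2709 and 3029 TPM in PANC-1. The mesenchymal genes VIM, CDH2 and ZEB1 summed to between 668 and 825 TPM in AsPC-1, where CDH2 was listed at 0. In PANC-1 that sum was between 3155 and 3415 TPM, nearly all of it VIM. Of 3 leukocyte markers CD3E was listed at 0 in all 8 libraries and PTPRC reached 0.019 TPM at most, while CD68 was at 108 to 139 TPM. The endothelial marker PECAM1 reached 0.038 TPM. Of 3 fibroblast markers COL1A1 was at 98.9 to 107 TPM in the PANC-1 libraries and at most 0.121 TPM in AsPC-1. The others, COL1A2 and DCN, reached 0.027 and 0.083 TPM at most in any library. The mitochondrial share of TPM was 41.2% to 44.1% in AsPC-1, while that in PANC-1 was 22.8% to 25.6%. Because TPM sum to a common total, this difference moves every other gene. The median of all 19122 genes tested was 0.55 higher in PANC-1 on the log2(TPM + 1) scale. It was 0.25 after rescaling without the mitochondrial genes, so a part of the shift remained without them, and 0.042 after quantile normalization. Differences between the lines are therefore read against that median.

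BHLHE40 was by far the most abundant of the 10 transcripts, and the other 9 were all under 26 TPM. In AsPC-1 the order by mean level was BHLHE40, NR1D2, NR1D1, CRY1, CLOCK, PER3, CRY2, PER2, DBP and PER1. In PANC-1 it was BHLHE40, CRY1, NR1D1, NR1D2, CLOCK, PER1, CRY2, PER3, PER2 and DBP. Neighbours whose ranges over the 4 treatments overlapped were NR1D2, NR1D1 and CRY1, and CRY2, PER2 and DBP, in AsPC-1, and NR1D1, NR1D2 and CLOCK, and CRY2, PER3 and PER2, in PANC-1. The plot of levels by library shows each value.

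**Figure D1:**
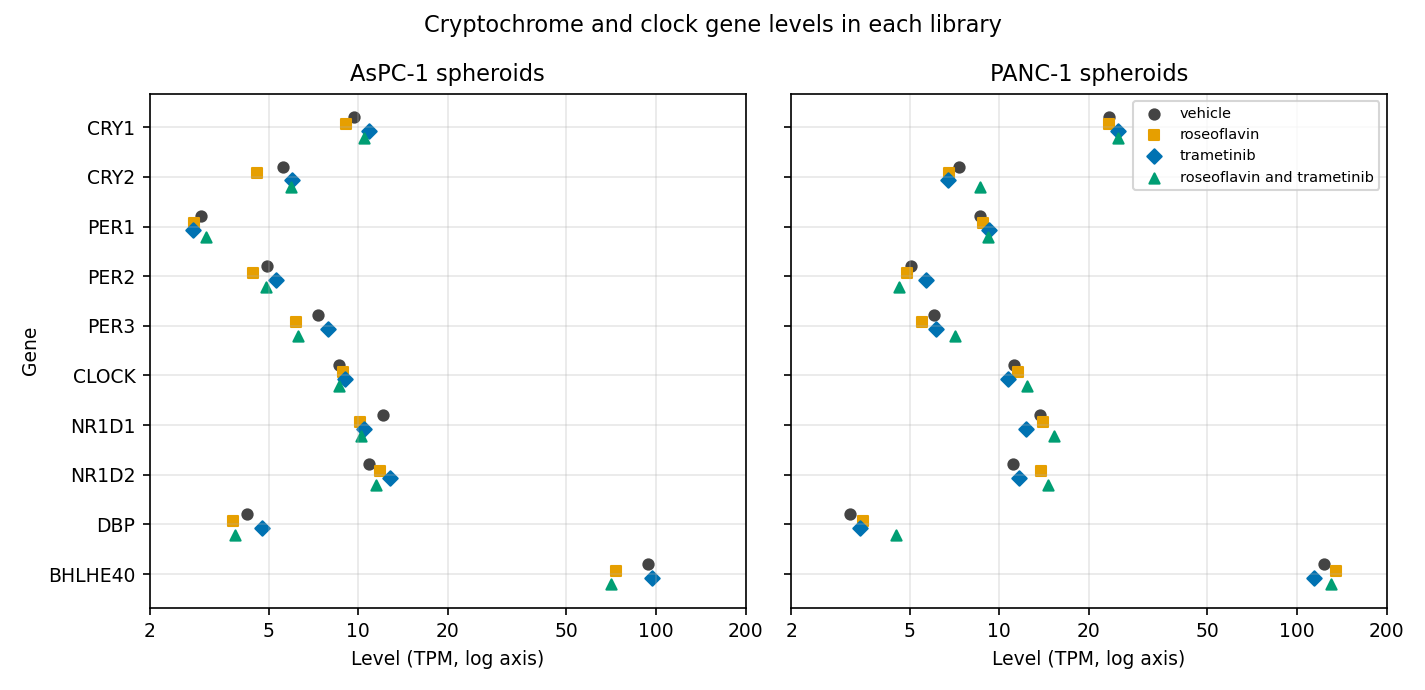
Level of each of the 10 genes in TPM (log axis) in the 4 AsPC-1 and 4 PANC-1 libraries, 1 point per library, with colour and shape giving the treatment. BHLHE40 lies between 70.6 and 135 TPM and the other genes between 2.79 and 25.1 TPM; CRY1 and PER1 are shifted most between the panels.

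Whether the lines differed was tested with 4 libraries against 4, the treatments serving as replication. Of the 10 genes, 6 were called higher in PANC-1 and 0 lower by limma at a Benjamini-Hochberg adjusted p of 0.05, with 62.3% of all genes called higher and 21.5% lower (83.8% in either direction), so the count is near the background. At an unadjusted p under 0.05 there were 6 of 10, against 84.5% of all genes. The ranges of the lines did not overlap, with PANC-1 higher, for the same 6 genes (CRY1, CRY2, PER1, CLOCK, NR1D1 and BHLHE40), and 59.4% of all genes had that pattern; 0 of the 10 had the opposite one, against 19.8%. Only CRY1 and PER1 stayed called higher under all scalings. With quantile normalization 2 of the 10 were called higher and 5 lower (41.6% and 37.5% of all genes), and without the mitochondrial genes 2 higher and 4 lower (49.7% and 30.9%). The median difference of the 10 genes was 0.34, against 0.55 over all genes.

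**Figure D2:**
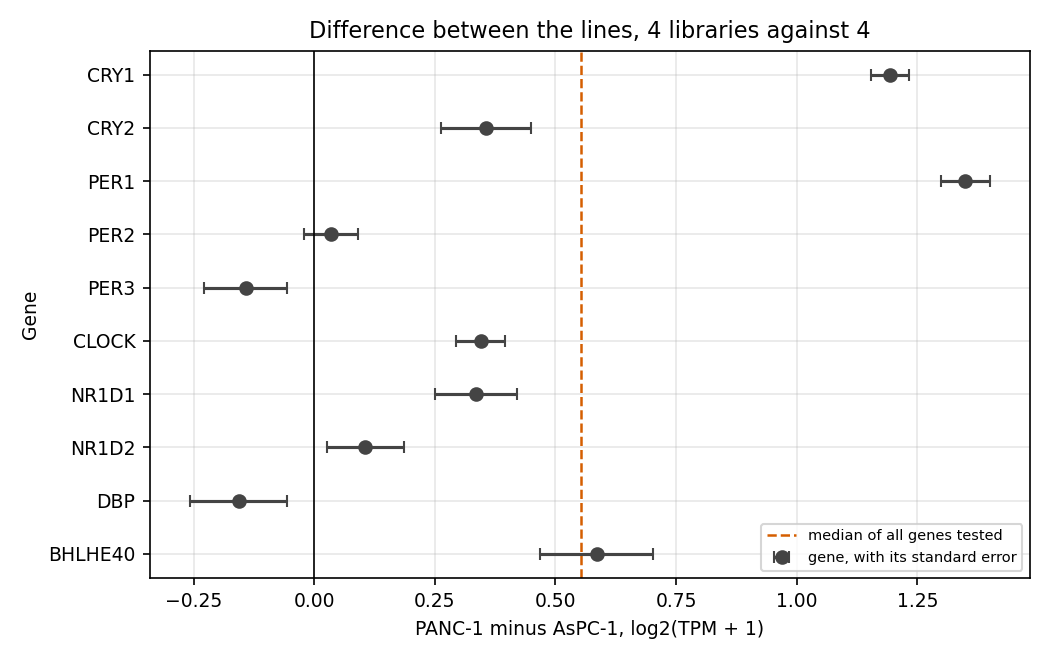
Difference between PANC-1 and AsPC-1 on the log2(TPM + 1) scale for each gene, with its standard error from limma (4 libraries against 4); the dashed line is the median of all genes tested, 0.55. CRY1 at 1.19 and PER1 at 1.35 lie to the right of that line by more than their standard errors, and PER2, PER3, NR1D2 and DBP lie near 0.

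CRY1 (ENSG00000008405; chromosome 12, 106991364 to 107093829, minus strand) encodes a strong repressor of the CLOCK and BMAL1 pair. In AsPC-1 it was at 9.67 TPM with vehicle, 9.12 with roseoflavin, 10.9 with trametinib and 10.5 with both. In PANC-1 the values in the same order were 23.4, 23.4, 25.1 and 25.0 TPM. Every PANC-1 library was above every AsPC-1 library, and within each line the libraries with trametinib were the higher pair. AsPC-1 averaged 10.0 ± 0.800 TPM, while PANC-1 averaged 24.2 ± 0.990 TPM (SD, n = 4 treatments). The difference was 1.19 (SE 0.0391, adjusted p 3.19e-07 by limma), which is 0.64 above the median of all genes, and it was called higher in PANC-1 under every alternative tried (0.67 to 1.26).

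CRY1 was the one gene of the 10 whose libraries with trametinib lay above those without in both lines. Taken line by line, 24% of all genes had this position among the AsPC-1 libraries, while 16.1% had it among those of PANC-1. The share of all genes with it in both lines at once was not counted, so whether CRY1 stands out was not tested. Its trametinib difference over both lines was 0.13 (SE 0.0391, 95% interval 0.039 to 0.23), higher in 4 of 4 matched comparisons, and it did not pass (p 0.0130, adjusted p 0.861 by limma). AsPC-1 alone gave 0.17 (p 0.0182, adjusted p 0.305) and PANC-1 alone 0.098 (adjusted p 1), and those values differed by -0.072 between the lines (adjusted p 0.730; 0 of the 10 genes at an unadjusted p under 0.05, against 9.7% of all genes). With trametinib, 9.66% of all genes were higher in 4 of 4 matched comparisons, a looser pattern that PER3 and DBP also had. Roseoflavin gave -0.033 over both lines (95% interval -0.13 to 0.062, adjusted p 0.881), -0.064 in AsPC-1 (adjusted p 0.621) and a difference between the lines of 0.064 (95% interval -0.11 to 0.24, adjusted p 0.711). At this precision no change of CRY1 with roseoflavin was detectable.

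CRY2 (ENSG00000121671; chromosome 11, 45847118 to 45883248, plus strand) encodes the second cryptochrome and had a lower level than CRY1 in both lines. It was at 5.61 TPM with vehicle, 4.58 with roseoflavin, 6.0 with trametinib and 5.96 with both in AsPC-1. The PANC-1 libraries had 7.33, 6.80, 6.73 and 8.60 TPM in the same order. Roseoflavin alone gave the lowest AsPC-1 value, and both compounds together the highest PANC-1 value. The lines differed by 0.36 (SE 0.0930, adjusted p 0.0102), which is below the median of all genes, was 0.020 without the mitochondrial genes (adjusted p 0.847) and was -0.20 under quantile normalization (adjusted p 0.0604).

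For CRY2 the compounds gave differences smaller than their errors allow to call. Roseoflavin in AsPC-1 gave -0.13 (SE 0.130, adjusted p 0.761), and the difference between the lines was 0.24 (95% interval -0.28 to 0.75, adjusted p 0.651). Trametinib over both lines gave 0.15 (SE 0.0930, adjusted p 0.861), and 0.20 in AsPC-1 (adjusted p 0.559), where the libraries with and without it did not overlap. With both compounds CRY2 was above the added single effects by 0.32 (SE 0.150, p 0.0814, adjusted p 1.000), with 2.8% of all genes at an unadjusted p under 0.05 in that comparison and none of the 10.

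PER1 (ENSG00000179094; chromosome 17, 8140472 to 8156506, minus strand) encodes a period protein, the partner of the cryptochromes in repression, and is also induced quickly by hormones and growth signals. In AsPC-1 it was at 2.96, 2.81, 2.79 and 3.07 TPM with vehicle, roseoflavin, trametinib and both, the lowest of the 10 genes. The PANC-1 values were 8.60, 8.84, 9.26 and 9.14 TPM. The lines did not overlap, and the treatments within a line were close together, with SDs of 0.135 TPM (AsPC-1) and 0.297 TPM (PANC-1). PANC-1 exceeded AsPC-1 by 1.35 (SE 0.0503, adjusted p 5.67e-07), the largest of the 10 genes and 0.80 above the median of all genes. It ranged from 0.78 to 1.59 over the alternatives that kept PER1, which is not among the genes averaging 10 TPM or more. Trametinib gave 0.043 over both lines (adjusted p 0.915), with the libraries not overlapping in PANC-1 alone (0.069, adjusted p 1). The gene AC129492.3 on the same strand shares 0.43% of the exonic bases of PER1 and was at 16.6 to 95.9 TPM.

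PER2 (ENSG00000132326; chromosome 2, 238244038 to 238290102, minus strand), a core period gene, was at about the same TPM in both lines. Its values in AsPC-1 were 4.95 TPM with vehicle, 4.44 with roseoflavin, 5.30 with trametinib and 4.91 with both. In PANC-1 they were 5.04, 4.90, 5.66 and 4.59 TPM. In each line the libraries with roseoflavin lay below those without it. PER2 was the one gene of the 10 that was lower with roseoflavin in 4 of 4 matched comparisons, as were 10.2% of all genes. The difference was -0.13 over both lines (SE 0.0556, p 0.0598, adjusted p 0.704), -0.11 in AsPC-1 (adjusted p 0.643) and -0.14 in PANC-1 (adjusted p 0.582). Trametinib gave 0.067 (adjusted p 0.872). The lines differed by 0.035 (SE 0.0556, adjusted p 0.580), and by -0.54 and -0.31 under quantile normalization and without the mitochondrial genes, where PER2 was called lower in PANC-1 (adjusted p 0.000147 and 0.00310).

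PER3 (ENSG00000049246; chromosome 1, 7784320 to 7845177, plus strand), the third period gene, was at 7.34, 6.2, 7.93 and 6.30 TPM in AsPC-1 with vehicle, roseoflavin, trametinib and both. The PANC-1 libraries held 6.03, 5.50, 6.11 and 7.12 TPM. In AsPC-1 the libraries with roseoflavin were the lower pair, and in PANC-1 the combination was the highest. Roseoflavin in AsPC-1 gave -0.25 (SE 0.0955, p 0.0589, adjusted p 0.453), and the difference between the lines was 0.29 (SE 0.135, adjusted p 0.491). Trametinib gave 0.11 over both lines (adjusted p 0.864), higher in 4 of 4 matched comparisons, and 0.17 in PANC-1 (adjusted p 1). The lines differed by -0.14 (SE 0.0864, adjusted p 0.166), and without the PANC-1 library with both compounds by -0.23, which was called lower in PANC-1 (adjusted p 0.0165). PER3 was also called lower under quantile normalization (-0.70) and without the mitochondrial genes (-0.50).

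CLOCK (ENSG00000134852; chromosome 4, 55427903 to 55547138, minus strand), the DNA-binding activator, had the lowest coefficient of variation over the treatments in AsPC-1 (2.09%). Its values there were 8.65 TPM with vehicle, 8.92 with roseoflavin, 9.0 with trametinib and 8.63 with both. In PANC-1 they were 11.2, 11.6, 10.7 and 12.4 TPM, with the libraries that received roseoflavin above the others. The lines differed by 0.34 (SE 0.0506, adjusted p 0.000624), below the median of all genes, by -0.011 without the mitochondrial genes (adjusted p 0.863) and by -0.19 under quantile normalization, where CLOCK was called lower in PANC-1 (adjusted p 0.0103). Roseoflavin in PANC-1 gave 0.12 (SE 0.0647, adjusted p 0.580), and the difference between the lines in that response was 0.12 (adjusted p 0.632).

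NR1D1 (ENSG00000126368; chromosome 17, 40092787 to 40100725, minus strand) encodes REV-ERB alpha, a heme-binding repressor. In AsPC-1 it was at 12.1 TPM with vehicle, 10.1 with roseoflavin, 10.5 with trametinib and 10.2 with both. Values in PANC-1 were 13.7, 14.0, 12.3 and 15.3 TPM. Vehicle was the highest AsPC-1 library, and in PANC-1 the libraries with roseoflavin lay above those without. Roseoflavin gave -0.14 in AsPC-1 (SE 0.0966, adjusted p 0.640) and 0.16 in PANC-1 (SE 0.0966, adjusted p 0.608), a gap between lines of 0.30 (SE 0.137, adjusted p 0.491). With both compounds NR1D1 was above the added single effects by 0.24 (SE 0.156, adjusted p 1.000). The lines differed by 0.33 (SE 0.0850, adjusted p 0.00910), by -0.027 without the mitochondrial genes (adjusted p 0.757) and by -0.19 under quantile normalization (adjusted p 0.0503). The gene THRA on the opposite strand shares 9.49% of the exonic bases of NR1D1 and was at 8.67 to 16.2 TPM, and whether the counting used strand is not stated, so a part of these reads is uncertain.

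NR1D2 (ENSG00000174738; chromosome 3, 23945260 to 23980618, plus strand) encodes REV-ERB beta. In PANC-1 it was at 11.1 TPM with vehicle and 11.7 with trametinib, and at 13.8 with roseoflavin and 14.6 with both, so the libraries with roseoflavin were 23.9% and 25.3% above their matched controls. In AsPC-1 the values were 10.9 TPM with vehicle, 11.9 with roseoflavin, 12.8 with trametinib and 11.5 with both, and the groups overlapped. Roseoflavin gave 0.29 in PANC-1 (SE 0.0796, 95% interval 0.071 to 0.52, p 0.0219) and did not pass (adjusted p 0.406). Over both lines it gave 0.14 (adjusted p 0.758), and the effect differed between lines by 0.31 (SE 0.113, adjusted p 0.428). Trametinib over both lines gave 0.079 (adjusted p 0.90). PANC-1 differed from AsPC-1 by 0.11 (SE 0.0802, adjusted p 0.254), by 0.18 without the AsPC-1 trametinib library, where it was called higher (adjusted p 0.0471), and by -0.26 and -0.43 without the mitochondrial genes and under quantile normalization, where it was called lower.

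DBP (ENSG00000105516; chromosome 19, 48630030 to 48637438, minus strand) is a bZIP factor of the D-box and a direct output of CLOCK. In AsPC-1 it was at 4.24 TPM with vehicle, 3.80 with roseoflavin, 4.74 with trametinib and 3.85 with both. In PANC-1 DBP was at 3.16, 3.50, 3.41 and 4.50 TPM. The libraries with roseoflavin were the lower pair in AsPC-1 and the higher pair in PANC-1. Roseoflavin gave -0.19 in AsPC-1 (SE 0.0864, adjusted p 0.505) and 0.22 in PANC-1 (SE 0.0864, adjusted p 0.484), a gap between lines of 0.40 (SE 0.122, 95% interval 0.059 to 0.74, p 0.0315, adjusted p 0.396). Trametinib gave 0.13 over both lines (adjusted p 0.864) and 0.19 in PANC-1 (adjusted p 1), and DBP was higher with it in 4 of 4 matched comparisons. PANC-1 differed from AsPC-1 by -0.16 (SE 0.101, adjusted p 0.189), by -0.25 without the PANC-1 library with both compounds (adjusted p 0.0421), by -0.73 under quantile normalization and by -0.50 without the mitochondrial genes, all 3 called lower in PANC-1. SPHK2 on the opposite strand shares 10.1% of the exonic bases of DBP and was at 6.36 to 11.2 TPM.

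BHLHE40 (ENSG00000134107; chromosome 3, 4979116 to 4985323, plus strand) encodes DEC1, a repressor that competes for E-boxes and is also a known target of the hypoxia-inducible factors. In AsPC-1 it was at 94.2 TPM with vehicle and 97.2 with trametinib, and at 73.7 with roseoflavin and 70.6 with both. In PANC-1 it was at 123 TPM with vehicle and 114 with trametinib, and at 135 with roseoflavin and 130 with both. The libraries with roseoflavin were the lower pair in AsPC-1, with changes of -21.8% and -27.4%, and the higher pair in PANC-1, with changes of 9.60% and 13.8%. Roseoflavin gave -0.40 in AsPC-1 (SE 0.0451, 95% interval -0.53 to -0.28, p 0.000976) and 0.16 in PANC-1 (SE 0.0451, 95% interval 0.031 to 0.28, p 0.0261), and neither passed over all genes (adjusted p 0.355 and 0.418 by limma). Between the lines this effect differed by 0.56 (SE 0.0638, 95% interval 0.38 to 0.74, p 0.00104, adjusted p 0.330). It ranged from 0.50 to 0.61 over the alternatives, with an adjusted p of 0.136 to 0.583. Over both lines roseoflavin gave -0.12 (adjusted p 0.850).

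The lines differed in BHLHE40 by 0.59 (SE 0.117, adjusted p 0.00300), which is 0.032 above the median of all genes. That call was lost without the mitochondrial genes (0.20, adjusted p 0.133) and under quantile normalization (0.15, adjusted p 0.265). The antisense gene BHLHE40-AS1 was at 0.103 to 1.54 TPM.

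In AsPC-1 the libraries with roseoflavin lay below those without for 5 genes (PER2, PER3, NR1D1, DBP and BHLHE40) and above for 0, with 21.6% and 10.6% of all genes in those positions. In PANC-1 they lay above for 5 genes (CLOCK, NR1D1, NR1D2, DBP and BHLHE40) and below for 1 (PER2), with 22.9% and 22.7% of all genes. NR1D1, DBP and BHLHE40 were below in AsPC-1 and above in PANC-1, and 5.31% of all genes were. These positions were counted on the deposited scale alone. The median of the 10 genes was -0.12 in AsPC-1, against -0.028 over all genes, and 0.11 in PANC-1, against 0 over all genes. By limma 0 of the 10 passed in either line, for the difference between lines or over both lines, where 0% of all genes passed as well. At an unadjusted p under 0.05 there were 1 of 10 in AsPC-1 (11.3% of all genes), 2 in PANC-1 (10.8%), 2 for the difference between lines (11.6%) and 0 over both lines (7.1%).

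**Figure D3:**
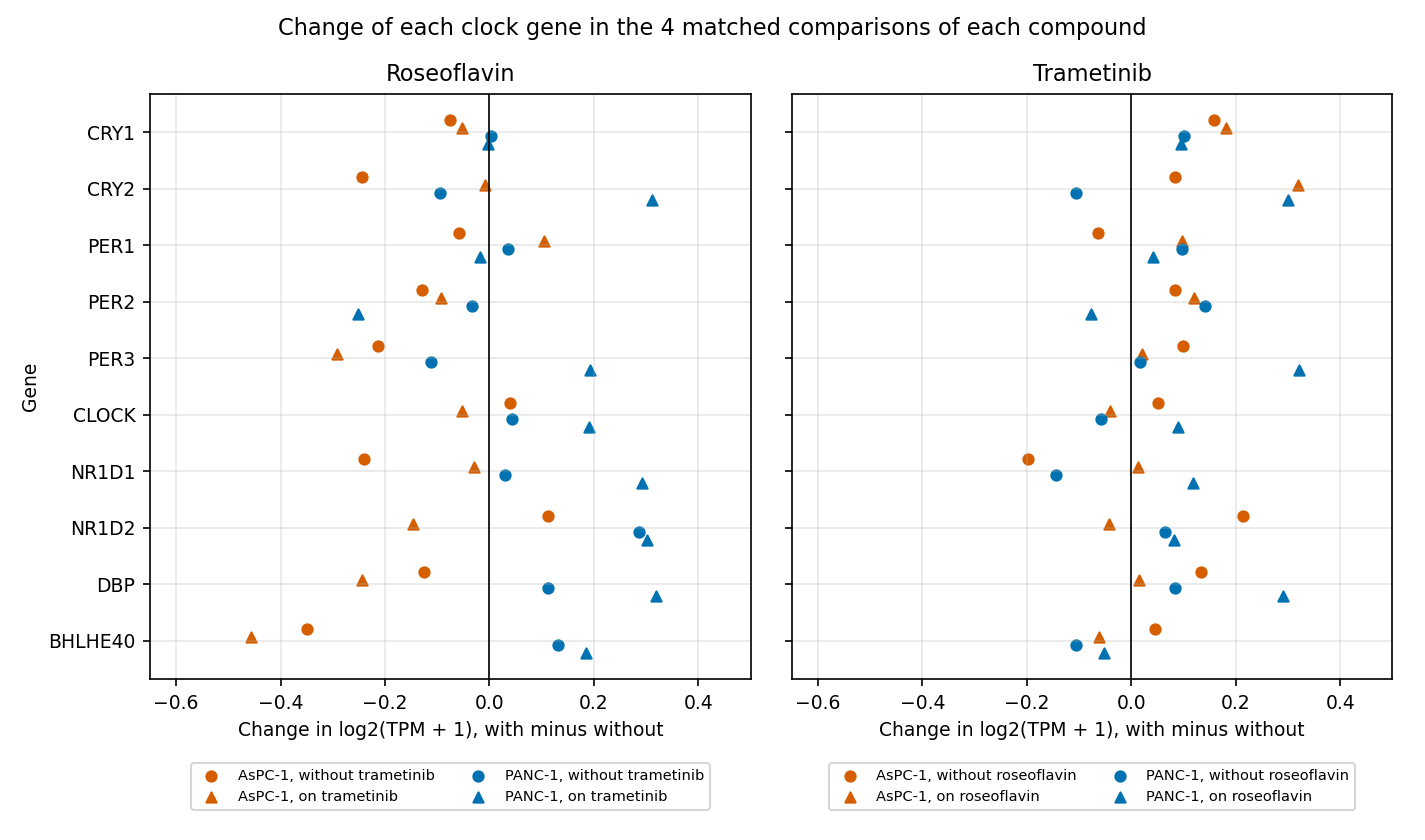
Change in log2(TPM + 1) of each gene for roseoflavin (left) and trametinib (right), 1 point for each of the 4 matched comparisons of 1 library with 1, coloured by line, with the shape giving the presence of the other compound. For roseoflavin the points of BHLHE40, DBP and NR1D1 are left of 0 in AsPC-1 and right of 0 in PANC-1; for trametinib those of CRY1, PER3 and DBP are all right of 0.

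In AsPC-1 the libraries with trametinib lay above the others for 2 genes (CRY1 and CRY2; 24% of all genes) and in PANC-1 for 3 (CRY1, PER1 and PER3; 16.1% of all genes), and below for 0 in both lines (13.3% and 11.6%). Over both lines 8 of the 10 were higher with it, as were 11274 of all 19122 genes. The median of the 10 was 0.073 against 0.018 over all genes, and 0 passed. At an unadjusted p under 0.05 there was 1 of 10 over both lines (CRY1; 4.91% of all genes), 1 in AsPC-1 (CRY1; 14.1%) and 0 in PANC-1 (4.81%). In the same libraries all 10 MAPK check genes were lower with trametinib over both lines, as were 7848 of all 19122 genes, with 0 called. That list was chosen with earlier results of these data known, and 9 of the 10 were lower in each line taken alone. DUSP6, a phosphatase induced by ERK, had the largest change of the list. Without roseoflavin it was at 193 TPM with vehicle and 155 TPM with trametinib in AsPC-1. The matching PANC-1 values were 18.6 and 14.0 TPM.

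Single libraries set against the vehicle of their line, 1 against 1 and with no test, gave few changes of 0.32 or more on the log2(TPM + 1) scale. BHLHE40 was past it on the lower side in AsPC-1 with roseoflavin, as were 10.9% of all genes, and with both compounds (10.7%). NR1D2 and DBP were past it on the higher side in PANC-1 with both compounds (7.41% of all genes). With trametinib alone 0 of the 10 were past it in either line. After rescaling without the mitochondrial genes, or quantile normalization, BHLHE40 was no longer past it with roseoflavin alone in AsPC-1.

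Of 30 other clock genes, 25 passed the filter. Between the lines 22 of them were called higher in PANC-1 and 1 lower, with a median difference of 0.73, against 62.3% called higher, 21.5% lower and a median of 0.55 over all genes. USP2, among the 22, reached 0.072 TPM at most in AsPC-1 and was at 0.888 to 2.04 TPM in PANC-1. It passed the filter through PANC-1 alone, so its call as higher there is no separate result. These calls were made on the deposited scale, whose shift between the lines is given above. BHLHE41, the closest relative of BHLHE40, showed the widest gap, from 2.67 TPM in AsPC-1 to 92.8 TPM in PANC-1 with vehicle (4.51, adjusted p 2.46e-08). BMAL2, a paralogue of BMAL1 listed in the table as ARNTL2, went from 3.42 to 30.1 TPM (2.81, adjusted p 1.05e-08), and WEE1, a cell cycle kinase under clock control, from 5.36 to 32.5 TPM (2.31, adjusted p 2.71e-08). NPAS2, which can replace CLOCK, was at 16.2 and 42.0 TPM with vehicle. BMAL1 itself, listed as ARNTL, was the gene called lower in PANC-1, at 4.36 and 2.81 TPM with vehicle (-0.38, SE 0.0639, adjusted p 0.00118).

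The compounds called 0 of these 25 genes in either line. In PANC-1 the libraries with roseoflavin lay above the others for 10 of them and below for 2, with 22.9% and 22.7% of all genes in those positions. In AsPC-1 they lay above for 4 and below for 4, against 10.6% and 21.6% of all genes. The largest differences in PANC-1 were those of USP2, a deubiquitinase of clock proteins (0.46, SE 0.111, adjusted p 0.399), NFIL3, a bZIP repressor at the D-box (0.28, SE 0.0740, adjusted p 0.406), and NAMPT, the rate-limiting enzyme of NAD salvage (0.25, SE 0.0701, adjusted p 0.407). NFIL3 was the 1 gene of the 25 that lay below in AsPC-1 and above in PANC-1, from 12.4 to 11.6 TPM and from 33.5 to 38.6 TPM without trametinib. In AsPC-1 the largest differences were those of NOCT (0.25), CREB1 (-0.22) and NFIL3 (-0.18).

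Because BHLHE40 is a target of the hypoxia-inducible factors, 18 hypoxia genes were set beside it; that list was chosen with their behaviour in these libraries already known. With roseoflavin 17 of the 18 were lower in AsPC-1 (median -0.45; BNIP3 was listed at 0 there) and 18 of 18 were higher in PANC-1 (median 0.30), with 0 called. In 13 of the 18 the libraries did not overlap in both lines, below in AsPC-1 and above in PANC-1, as were 5.31% of all genes. NDRG1, for one, was at 104 TPM with vehicle and 64.9 TPM with roseoflavin in AsPC-1, against 25.2 and 32.7 TPM in PANC-1. BHLHE40, DBP and NR1D1 were lower or higher in the same libraries with roseoflavin as these genes. The part of the hypoxia genes in their values was not tested. In AsPC-1 NR1D1 differed by -0.24 between the libraries with roseoflavin and vehicle, where NDRG1 differed by -0.68. Between the library with both compounds and that with trametinib the values were -0.030 and -1.33. NDRG1 does not stand for the whole list, as this fall was the largest of the 18. VEGFA, for one, had -0.41 and -0.38 in these comparisons.

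**Figure D4:**
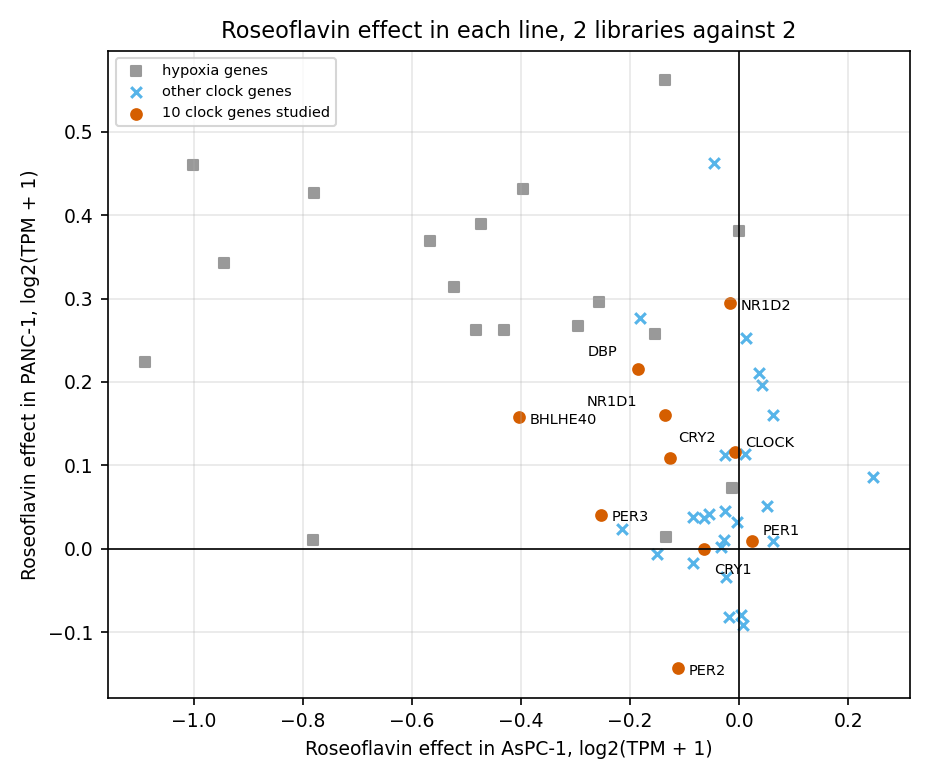
Roseoflavin effect on the log2(TPM + 1) scale in AsPC-1 (horizontal) and PANC-1 (vertical), each from 2 libraries against 2, for the 10 clock genes (labelled), 25 other clock genes and 18 hypoxia genes. BHLHE40 (-0.40 and 0.16) lies on the side of the hypoxia genes, below 0 in AsPC-1 and above 0 in PANC-1. DBP, NR1D1, PER3, CRY2, NR1D2 and CLOCK lie on that side as well, but NR1D2 (-0.017) and CLOCK (-0.0074) are close to 0 in AsPC-1. For PER3 and CRY2 the matched comparisons in PANC-1 had opposite signs. PER2 is below 0 in both lines, and CRY1 and PER1 lie near the origin.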

How the data were processed

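The 8 RNA libraries came from AsPC-1 and PANC-1 spheroids and were prepared with a stranded poly(A) kit per the labels' protocols. The authors deposited 1 table with TPM per gene, per the file headers; STAR 2.7.3a, HTSeq 2.0.2 and build hg38 are named in the submitters' processing notes, while the annotation, the strand setting and the step to TPM are not given in the sources used here. The table held 62649 genes, and 985926 blank rows were dropped. Genes with at least 1 TPM in 2 libraries (19122) entered limma on the log2(TPM + 1) scale, on which changes of low genes look smaller than they are; version 3.58.1 ran in R 4.3.3 (trend in the prior variance, Benjamini-Hochberg over all genes, threshold 0.05). The line and the effects over both lines came from an additive model of line, roseoflavin and trametinib. Effects per line and their differences came from a model with both compounds nested in line, which leaves 2 libraries against 2 and pools the spread over the lines. Since each condition had 1 library, p-values measure only the spread between these samples.

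A model with a roseoflavin by trametinib term gave the combined effect. The fits were tested on simulated data with known changes of roseoflavin in 200 genes. At a change of 0.5 on the log2 scale, 46.5% were recovered over both lines. In PANC-1 and for the difference between lines 0% were. At a change of 1 the shares were 81.5%, 39.5% and 0% in the same order. A compound result that did not pass is therefore no evidence that a gene was unchanged. The 10 genes, the lists (30 other clock genes, 18 hypoxia genes, MAPK and cell type markers) and the tests were chosen with earlier results of these data known. Besides the 10, the genes named were those with the 3 largest changes in a list, BMAL1 as the 1 clock gene called lower and the 3 most alike in pattern. Of the genes that overlap a member, THRA, SPHK2, AC129492.3 and BHLHE40-AS1 were named and others were not. NPAS2, NDRG1 and VEGFA were chosen after their values were seen. Alternatives were a pseudocount of 0.1, no filter, a mean of at least 10 TPM, quantile normalization, rescaling without the mitochondrial genes and leaving out each library; a model with the other compound not nested in line was added after the data had been seen. Gene coordinates are from GENCODE release 29 (GRCh38), matched by Ensembl identifier.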

Additional observations from a re-analysis of the deposited data

Results flagged for a closer look

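In 3 of the 10 genes both matched comparisons with roseoflavin were lower in AsPC-1 and both were higher in PANC-1. Their libraries with and without roseoflavin did not overlap in either line, a pattern that 5.31% of all genes had. The effect differed between lines by 0.56 for BHLHE40 (SE 0.0638, adjusted p 0.330), 0.40 for DBP (SE 0.122, adjusted p 0.396) and 0.30 for NR1D1 (SE 0.137, adjusted p 0.491) on the log2(TPM + 1) scale, tested with limma over all genes, and none passed. For NR1D1 1 comparison in each line was small (AsPC-1 -0.030, PANC-1 0.030), and its difference was 0.16 without the PANC-1 library with trametinib or that with both compounds, 0.19 without the AsPC-1 library with vehicle or that with roseoflavin, and up to 0.43 without others. Without trametinib, BHLHE40 had 94.2 TPM with vehicle and 73.7 with roseoflavin in AsPC-1, against 123 and 135 TPM in PANC-1.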

How the results depend on the processing

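The calls of CRY1 and PER1 as higher in PANC-1 held under the alternatives that kept them; PER1 is not among the genes averaging 10 TPM or more. Under quantile normalization the difference between the lines changed sign for CRY2 (-0.20), PER2 (-0.54), CLOCK (-0.19), NR1D1 (-0.19) and NR1D2 (-0.43), and without the mitochondrial genes for PER2 (-0.31), CLOCK (-0.011), NR1D1 (-0.027) and NR1D2 (-0.26); the median of all genes moved with them, as given above. Of the 9368 genes averaging 10 TPM or more, 8388 were called between the lines. With the other compound not nested in line, 5 genes were called for the difference in the roseoflavin response and 2 for trametinib in PANC-1, none of them among the 10. For single libraries, the number of the 10 genes past a change of 0.32 with roseoflavin in AsPC-1 was 0 under both rescalings, and with both compounds in PANC-1 it was 1 among the 5 that averaged 10 TPM or more. Of 90 pairs of a gene and a compound comparison, 39 changed sign under at least 1 alternative, each with a change of at most 0.12; as no gene passed a compound comparison in the models reported, the calls say nothing about stability. No paired analysis by replicate number was possible because each group has 1 library; the line and the other compound are terms of the models. TPM keep no depth, so counting error could not be separated from other spread.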

Other observations

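Some genes followed the cryptochromes and BHLHE40 closely across treatments. Over the 8 libraries, with log2(TPM + 1) centred within each line, the genes averaging 10 TPM or more that were most like CRY1 were ANKMY2, LATS1 and SEC22B (Pearson's r of 0.985, 0.981 and 0.979). Those most like CRY2 were AMZ2P1, DERPC and CHTF8 (0.978, 0.975 and 0.972), and those most like BHLHE40 were FGF11, SPIN4 and OGA (0.993, 0.986 and 0.982). FGF11 was at 9.38, 6.11, 9.71 and 5.54 TPM in AsPC-1 with vehicle, roseoflavin, trametinib and both, and at 33.0, 38.4, 31.4 and 37.8 TPM in PANC-1. These are the highest of at least 8629 genes compared, the points share their libraries and scaling, and 128, 42 and 87 genes had an r over 0.9 with CRY1, CRY2 and BHLHE40, so the values are a description only.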
